A study of Homo sapiens with 4 samples.

Results

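The ATP-binding cassette (ABC) transporter family was read in 4 RNA-seq libraries of colorectal cancer cell lines. Its members were taken as the protein-coding rows of the gene table whose symbol is ABC, a subfamily letter from A to G and a number. This rule gave 45 of the 58735 genes in the table and used no measured value, though the family was chosen with earlier results of these data known. It leaves out the family members that carry other symbols, namely TAP1, TAP2 and CFTR, and 16 rows with ABC symbols that are pseudogenes, antisense or other non-coding genes.

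ABC proteins bind and hydrolyse ATP through a conserved pair of nucleotide-binding folds. Most of them use that energy to move lipids, bile salts, drugs, peptides or metal complexes across a membrane, while subfamilies E and F have no membrane domain and work with the ribosome. Several members of subfamilies B, C and G pump chemotherapeutics out of cells, and ABCB1, ABCC1 and ABCG2 are the classic multidrug exporters.

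The study compared spheroids with adherent cells to characterise stem-like, drug-tolerant colorectal cancer cells. HCT116 and LOVO are established human colorectal cancer lines, labelled wild type. The adherent HCT116 and adherent LOVO libraries came from untreated cells in RPMI-1640 with serum. The HCT116 and LOVO spheroid libraries came from cells grown in suspension in serum-free DMEM/F12 with B27, N2, bFGF and EGF, and with oxaliplatin according to the study's text. The labels give a treatment of 1 mg/ml for the spheroids without naming the agent, whereas the study's text gives micrograms per ml, so the dose is uncertain. Growth form, medium and drug changed together and cannot be told apart.

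There was 1 library per condition, so no value below carries a replicate error and no test was possible within a line. The authors deposited FPKM (fragments scaled to gene length in kilobases and to 1000000 fragments of the library), from which whole reads were recovered. The libraries held 15483569 to 20429147 reads on genes. A fold change below is the difference of log2(FPKM + 1) between 2 libraries, which understates the change of low genes, and it was called when it passed 1 in either direction. A log2 ratio is the ratio of the FPKM themselves, with no pseudocount, and is given with its 95% exact counting interval, which covers counting error only. Of the 45 members, 25 had a mean FPKM of at least 1 and were compared among 14429 such genes, and 20 did not.

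The libraries labelled LOVO went against markers of colorectal epithelium. CDX2 had 0 reads in both of them, against 323 and 216 in adherent and spheroid HCT116 cells. CDH1, the epithelial cadherin, had 13 reads in the adherent and 1 in the spheroid LOVO-labelled library, against 3920 and 3227 in HCT116. VIL1 and GPA33 also had 0 reads in both, but they were low in HCT116 too, at 6 and 11 reads and at 11 and 9. LGALS4 had 3, 4, 4 and 5 reads in HCT116 and then LOVO-labelled libraries and did not separate the lines. Of 10 epithelial markers, 5 were above 3 reads in each LOVO-labelled library and 9 and 10 in the HCT116 libraries, and the summed FPKM of the list was 312 and 182 against 946 and 745. Most of the LOVO-labelled sums came from the keratins KRT8, at 189 and 81.6, and KRT18, at 122 and 98.8. The summed FPKM of 6 fibroblast markers was 54.0 and 72.8 in the LOVO-labelled libraries against 5.60 and 16.1, with DCN at 2386 and 2577 reads against 0 in both HCT116 libraries. The list was not uniform. COL1A2 had at most 1 read in any library, and COL1A1 was lower in LOVO-labelled than in HCT116 spheroids, at an FPKM of 6.10 against 15.5. Among 4 endothelial markers the sum went from 1.13 to 7.84 between the LOVO-labelled libraries, through PECAM1 with 5 and 992 reads, while 6 leukocyte markers summed to at most 2.03 in any library. These 2 libraries are therefore called LOVO-labelled below, HCT116 is given on its own throughout, and the part of these markers in the results was not tested. In bulk RNA, fewer cells of a type and less RNA per cell cannot be told apart.

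Promoter sequence is shown for 4 members that the values below turn on. ABCG2 is the exporter the study followed, ABCC4 and ABCC2 are exporters whose values differed in opposite directions in the 2 lines, and ABCA1 is the family's textbook target of the liver X receptors (LXR). The sequences are from RefSeq (GRCh38.p14), read 5′ to 3′ on the strand of the gene and, for the first 3, trimmed to the longest stretch before the transcript start that no annotated exon covers. Capitals mark an E-box (CACGTG) in ABCG2, an antioxidant response element core (TGACNNNGC, here on the other strand) in ABCC4 and an LXR-type direct repeat (AGGTNA, 4 free bases and NGGTCA, here on the other strand) in ABCA1.
ABCG2, chr4:88159025-88159159, minus strand: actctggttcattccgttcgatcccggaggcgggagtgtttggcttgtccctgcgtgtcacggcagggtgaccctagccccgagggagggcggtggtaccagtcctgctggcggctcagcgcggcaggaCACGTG
ABCC4, chr13:95301476-95301701, minus strand: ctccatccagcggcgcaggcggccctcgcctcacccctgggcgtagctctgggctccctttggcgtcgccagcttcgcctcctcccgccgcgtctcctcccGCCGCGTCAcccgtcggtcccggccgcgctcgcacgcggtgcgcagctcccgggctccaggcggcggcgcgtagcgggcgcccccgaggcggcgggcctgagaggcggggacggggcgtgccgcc
ABCC2, chr10:99782390-99782639, plus strand: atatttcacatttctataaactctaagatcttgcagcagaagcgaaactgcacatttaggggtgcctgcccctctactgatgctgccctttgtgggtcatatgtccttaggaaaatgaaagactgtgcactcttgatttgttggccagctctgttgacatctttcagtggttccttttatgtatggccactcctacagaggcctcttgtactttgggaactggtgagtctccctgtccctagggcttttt
ABCA1, chr9:104928202-104928231, minus strand: caggcttTGACCGATAGTAACCTctgcgct

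Over the 250 bases before each transcript start, on both strands, the E-box was found in 6.34% of the 35116 RefSeq promoters, the antioxidant response element core in 10.9% and the LXR-type repeat in 0.0797%. The repeat was found in 1 of the 53 promoter windows that matched 35 of the members, that of ABCA1. None of the 9 motifs searched was in the ABCC2 window, which held 1 CpG against 42 in that of ABCC4. The other motifs were the GC box GGGCGG, in 42.6% of promoters, and CCAAT, in 32.0%. The hypoxia core ACGTG, in 18.5%, overlaps the E-box. The xenobiotic core GCGTG was found in 32.2%, the cyclic AMP element TGACGTCA in 1.65% and the amino acid element core TGATGNAA in 3.14%. A match describes letters only. Taking the window richest in CpG for each member, the 20 compared members with a promoter entry had a median of 26.5 CpG, from 1 in ABCC2 to 54 in ABCA2. The 15 members that were not compared and had an entry had a median of 7, from 1 in ABCA9 to 24 in ABCC11. The median over all promoters was 11.

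The family took a small share of the transcriptome in every library. Its summed FPKM was 204 and 219 in adherent and spheroid HCT116 cells, and 322 and 277 in adherent and spheroid LOVO-labelled cells. Its share of the reads on genes was 0.150%, 0.181%, 0.197% and 0.222% in the same order. Among LOVO-labelled libraries the sum was thus higher in adherent cells and the read share higher in spheroids, so their order depends on the measure. The members above 3 reads numbered 36, 40, 33 and 35. In adherent HCT116 cells the family's FPKM was led by ABCF1 with 10.9% of the sum, ABCA2 with 10.8% and ABCE1 with 10.3%. In LOVO-labelled spheroids it was led by ABCC3 with 13.6% and ABCF1 with 13.3%.

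**Figure D1:**
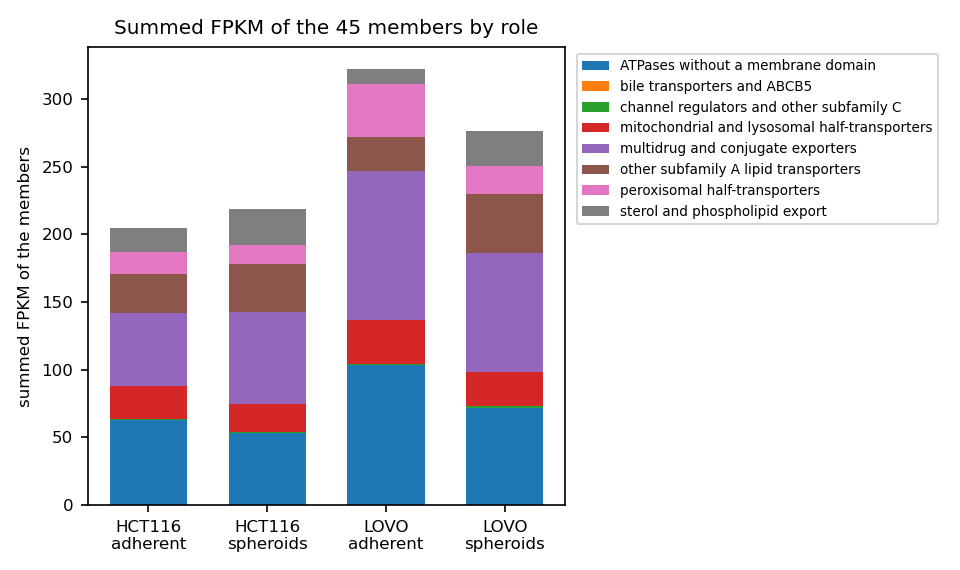
Summed FPKM of the 45 members in each of the 4 libraries (1 bar per library), split by the role of the members. Multidrug and conjugate exporters and ATPases without a membrane domain make up the largest blocks. The summed FPKM is highest in adherent LOVO-labelled cells at 322, while the share of reads is highest in LOVO-labelled spheroids at 0.222%.

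Between growth forms, no compared member passed the threshold in HCT116, while 7 did in the LOVO-labelled libraries. In HCT116, 0 of 25 members were called higher in spheroids, against 2.19% of all genes compared, and 0 were called lower, against 3.33%. Fold changes ran from -0.62 to 0.76, with 16 members above 0 and 9 below, and a median of 0.16 against -0.03 over all genes. In the LOVO-labelled libraries 4 members, or 16%, were called higher in spheroids (ABCA3, ABCA5, ABCA7 and ABCC3), against 8.57% of all genes. A further 3 members, or 12%, were called lower, ABCB1 and ABCC4 among them, against 7.85%. Fold changes there ran from -1.70 to 1.79, with 11 members above 0 and 14 below, and a median of -0.41 against -0.06 over all genes. With the FPKM rescaled to TPM, which moved the median of all genes in the LOVO-labelled comparison by 0.15 on the log2 scale, 5 members were higher, against 15.7% of all genes, and 2 lower, against 6.74%. The study's screen used a threshold of 2 on edgeR values together with a p cut-off. At 2 on the fold change used here, 0 members were called in either direction in either line. The shares of all genes were 0.201% higher and 0.506% lower in HCT116, and 1.81% and 0.943% in the LOVO-labelled libraries. The pseudocount matters here. On the log2 ratio, ABCB1 (-2.49), ABCA5 (2.17) and ABCG4 (2.94, on 5 and 43 reads) were past 2 in the LOVO-labelled libraries. The share of all genes past 2 on that ratio was not computed.

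**Figure D2:**
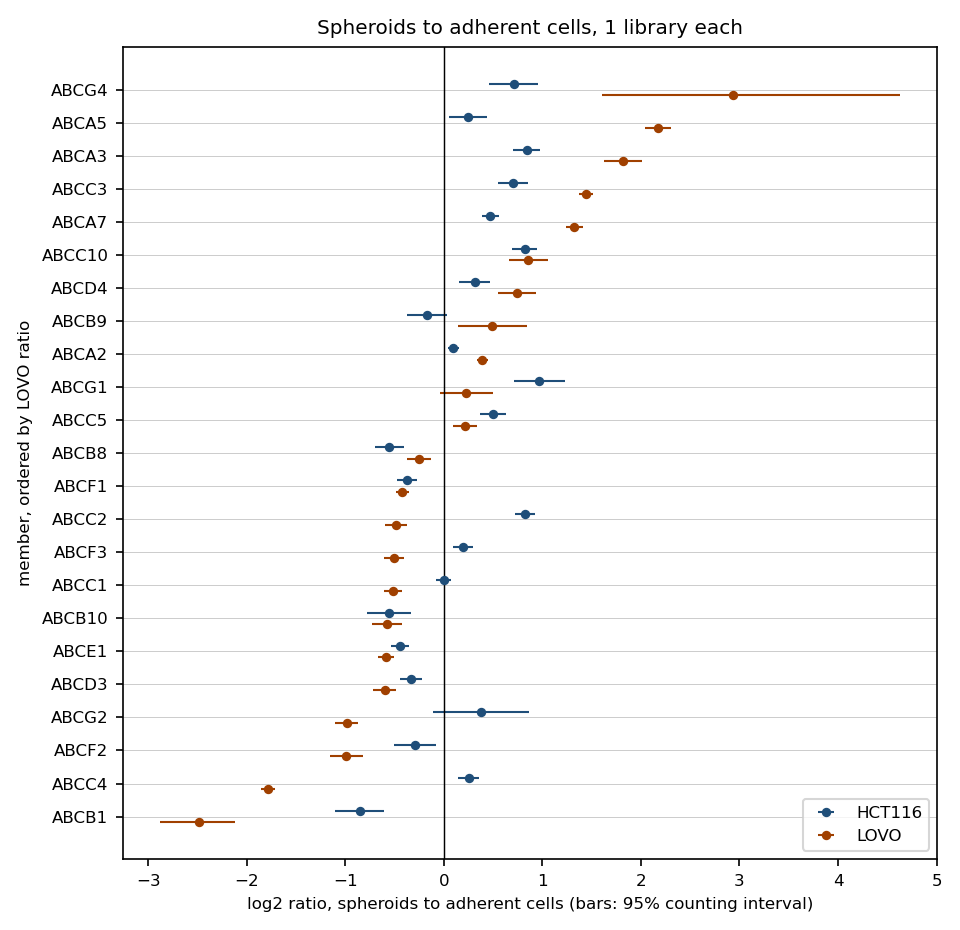
Log2 ratio of the FPKM of spheroids to adherent cells for 23 of the 25 compared members, in HCT116 (blue) and the LOVO-labelled libraries (brown), with 95% exact counting intervals as bars. The ratios lie between -0.85 and 0.97 in HCT116, and between -2.49 and 2.94 in the LOVO-labelled libraries.

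The 2 lines gave the same sign for 18 of the 25 members, or 72%, of which 10 were higher and 8 lower in both spheroid libraries, against 62.3% of all genes. Across the 25 members Pearson's r of the fold changes was 0.55 and Spearman's rho 0.55, against 0.30 and 0.35 over all genes. Genes are not independent replicates and no p is given. In limma, fitted over all genes and all 4 libraries with growth form and line as terms and 1 residual degree of freedom, 5 of 25 members had an unadjusted p under 0.05 for growth form (ABCA3, ABCA7, ABCB1, ABCC3 and ABCC10), against 10.7% of all genes. No member and none of the 14429 genes passed after Benjamini-Hochberg adjustment, with 0.462 as the lowest adjusted p from limma.

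**Figure D3:**
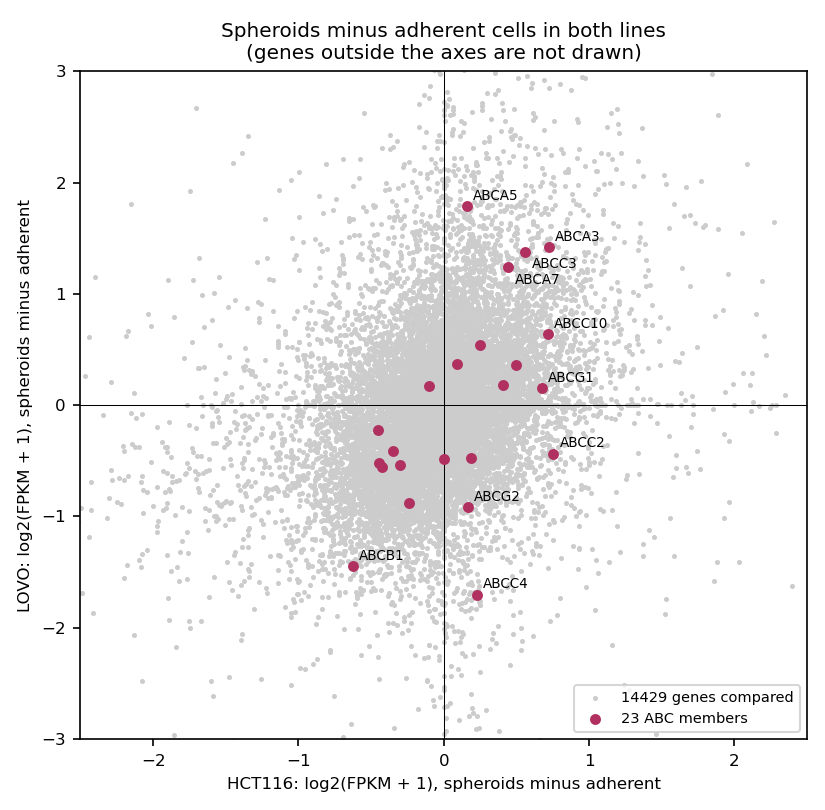
Difference of log2(FPKM + 1), spheroids minus adherent cells, in HCT116 (x axis) and the LOVO-labelled libraries (y axis) for all 14429 genes compared (grey) and 23 of the 25 compared members (red). ABCA3, ABCC3 and ABCA7 lie in the quadrant higher in both, ABCB1 in the quadrant lower in both, and ABCC2 and ABCC4 where HCT116 spheroids are higher and LOVO-labelled ones lower.

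Of the multidrug and conjugate exporters, ABCC3 was the one called higher, and ABCB1 and ABCC4 were called lower, in LOVO-labelled spheroids. ABCC3 (chr17:50634777-50692252), a basolateral exporter of glucuronides and bile salts, had an FPKM of 3.11 and 5.06 in adherent and spheroid HCT116 cells, and of 13.8 and 37.6 in adherent and spheroid LOVO-labelled cells. Both spheroid libraries were above their adherent library, and both LOVO-labelled libraries were above both HCT116 libraries. The log2 ratio, spheroid over adherent, was 0.70 (interval 0.55 to 0.86) in HCT116 and 1.44 (1.38 to 1.51) in the LOVO-labelled libraries.

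ABCB1 (chr7:87503633-87713323), which encodes P-glycoprotein, had an FPKM of 3.70, 2.05, 3.36 and 0.599 in the same order of libraries. It was lower in spheroids of both lines, on 438 and 200 reads in HCT116 and 350 and 70 reads in the LOVO-labelled libraries. The log2 ratio was -0.85 (-1.10 to -0.61) in HCT116 and -2.49 (-2.88 to -2.11) in the LOVO-labelled libraries. The adherent libraries of the 2 lines were close, with a log2 ratio of LOVO-labelled to HCT116 cells of -0.14 and an interval from -0.35 to 0.07 that includes 0.

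ABCC4 (chr13:95019829-95301475), an exporter of cyclic nucleotides and prostaglandins, had an FPKM of 8.35 and 9.93 in adherent and spheroid HCT116 cells, and 41.0 and 11.9 in adherent and spheroid LOVO-labelled cells. The adherent LOVO-labelled library stood apart, and the other 3 lay within 8.35 to 11.9. The log2 ratio was 0.25 (0.15 to 0.36) in HCT116 and -1.78 (-1.86 to -1.71) in the LOVO-labelled libraries, which puts the lines in opposite directions.

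ABCC2 (chr10:99782640-99852594), the apical conjugate pump that also exports platinum conjugates, had an FPKM of 8.63 and 15.3 in HCT116 and of 10.8 and 7.71 in the LOVO-labelled libraries. It too was higher in spheroids of HCT116 and lower in those labelled LOVO, with log2 ratios of 0.82 (0.72 to 0.92) and -0.48 (-0.59 to -0.37). Its fold change of 0.76 was the highest of the compared members in HCT116 and lay at percentile 95.4 of all genes compared.

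ABCG2 (chr4:88090264-88231322), the half-transporter known as breast cancer resistance protein, was set apart by line. Its FPKM was 0.691 and 0.897 in HCT116, on 71 and 76 reads, and 18.5 and 9.36 in the LOVO-labelled libraries, on 1675 and 950 reads. Between growth forms the log2 ratio was 0.38 in HCT116, with an interval from -0.11 to 0.86 that includes 0, and -0.98 (-1.10 to -0.87) in the LOVO-labelled libraries. The study reports ABCG2 among the genes up-regulated in its spheroids by RNA-seq, and a rise over spheroid passages by RT-PCR and western blot. The values here show no rise clear of counting error in either line. They rest on 1 library per condition and on RNA only.

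The other exporters were not called between growth forms in either line. ABCC10, a broad-specificity drug pump, had an FPKM of 5.43, 9.57, 2.21 and 4.003 and was higher in spheroids by a similar log2 ratio in both lines, 0.82 (0.69 to 0.94) in HCT116 and 0.86 (0.66 to 1.06) in the LOVO-labelled libraries. ABCC1, the glutathione conjugate exporter MRP1, had 20.2 in both HCT116 libraries and 15.6 and 10.9 in the LOVO-labelled ones. Its log2 ratio in HCT116 had an interval from -0.07 to 0.08, which includes 0, and was -0.52 (-0.61 to -0.42) in the LOVO-labelled libraries. ABCC5, a nucleotide analogue exporter, had 3.59, 5.08, 4.94 and 5.73, with log2 ratios of 0.50 (0.37 to 0.64) and 0.21 (0.10 to 0.33). ABCC11 had 0, 4, 6 and 10 reads and was not compared. The 9 exporters together summed to an FPKM of 53.7 and 68.1 in adherent and spheroid HCT116 cells, and of 110 and 87.9 in the LOVO-labelled libraries.

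**Figure D4:**
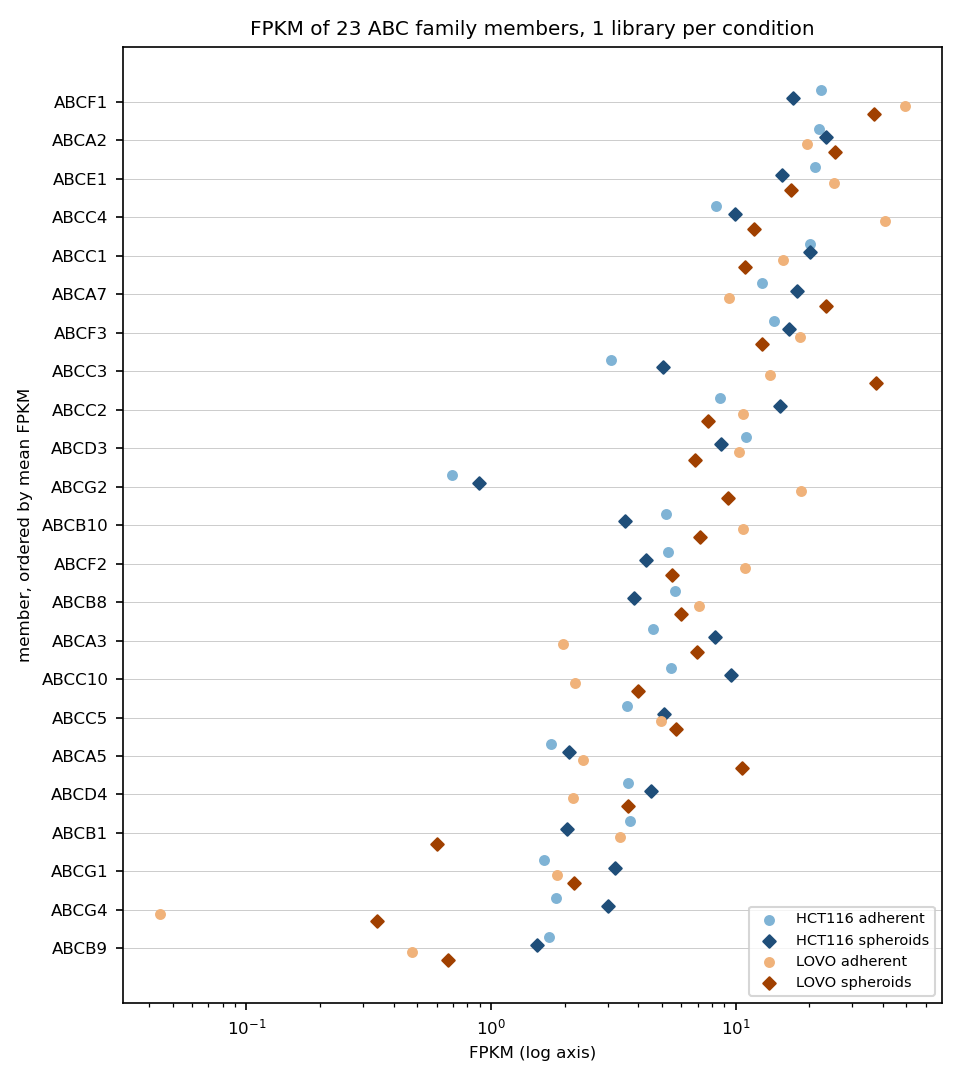
FPKM (log axis) of 23 of the 25 compared members in the 4 libraries, ordered by mean FPKM; each point is 1 library and no error bar can be drawn. ABCG2 separates by line, with 0.691 and 0.897 in HCT116 and 18.5 and 9.36 in the LOVO-labelled libraries.

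Among the members that move sterols and phospholipids, the values in spheroids were mostly the higher ones. ABCA7 (chr19:1040101-1065572), a phospholipid exporter, had an FPKM of 12.9, 17.9, 9.36 and 23.5, and its log2 ratio was 0.47 (0.39 to 0.56) in HCT116 and 1.33 (1.24 to 1.41) in the LOVO-labelled libraries. ABCG1, which loads cholesterol onto high-density lipoprotein, had 1.65, 3.23, 1.87 and 2.18. Its log2 ratio of 0.97 (0.71 to 1.23) was the highest of the compared members in HCT116, whereas in the LOVO-labelled libraries it was 0.23 with an interval from -0.04 to 0.50 that includes 0. ABCG4, a close relative of ABCG1, had 1.85, 3.02, 0.0445 and 0.341, the last 2 on 5 and 43 reads.

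ABCA1 (chr9:104781002-104928237), the cholesterol and phospholipid exporter that starts high-density lipoprotein formation, had a mean FPKM under 1 and was not compared. It had 226 and 389 reads in adherent and spheroid HCT116 cells, against 4 and 16 in the LOVO-labelled libraries. Its spheroid to adherent log2 ratio in HCT116 was 1.06 (0.82 to 1.31). ABCG5 and ABCG8, the intestinal and biliary sterol pumps, had at most 3 reads in any library.

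Of 10 other LXR target genes, 9 were compared. In HCT116, 0 were called higher, against 2.19% of all genes, and 0 lower, against 3.33%. There, 7 were above 0, against 45.8% of all genes, and the median fold change was 0.11. In the LOVO-labelled libraries 3 were called higher, against 8.57% of all genes, and 0 lower, against 7.85%, with a median of 0.53. APOE, the lipoprotein ligand, had an FPKM of 2.55, 4.86, 0.382 and 8.94, and SCD, the stearoyl-CoA desaturase, had 146, 284, 282 and 950. NR1H3, the receptor LXR alpha itself, had 3.58, 3.76, 6.16 and 15.9.

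In the rest of subfamily A, ABCA5 and ABCA3 were called higher in LOVO-labelled spheroids. ABCA5 (chr17:69244311-69327244), a lysosomal lipid transporter, had an FPKM of 1.76, 2.08, 2.37 and 10.6, so 3 libraries lay close together and the LOVO-labelled spheroids stood above them. Its log2 ratio was 0.24 (0.06 to 0.43) in HCT116 and 2.17 (2.04 to 2.30) in the LOVO-labelled libraries. ABCA3 (chr16:2275881-2340746), the phospholipid transporter of lamellar bodies in the lung, had 4.61, 8.27, 1.98 and 6.99, with log2 ratios of 0.84 (0.70 to 0.98) and 1.82 (1.63 to 2.01). ABCA2, a lysosomal transporter abundant in brain, was among the highest members in all 4 libraries, at 22.0, 23.6, 19.5 and 25.6.

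ABCA5 lies in a row of 5 subfamily A genes on chromosome 17, between 68867292 and 69327244, with ABCA8, ABCA9, ABCA6 and ABCA10. Its 4 neighbours had at most 69 reads in any library, against 460 to 2819 for ABCA5. ABCA5 and ABCA10 share 318 exonic bases, or 2.42% of those of ABCA5. ABCA8 had 4 and 6 reads in HCT116 and 69 and 48 in the LOVO-labelled libraries. The ABCB4 and ABCB1 pair on chromosome 7 was similarly uneven, with at most 4 reads on ABCB4, the phosphatidylcholine floppase of bile.

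In the peroxisome, ABCD3, the branched-chain acyl-CoA importer, had an FPKM of 11.0, 8.75, 10.3 and 6.80, and its log2 ratio was -0.33 (-0.44 to -0.22) in HCT116 and -0.60 (-0.72 to -0.48) in the LOVO-labelled libraries. ABCD2, an importer of fatty acyl-CoA, had 8 and 9 reads in HCT116 and 0 in both LOVO-labelled libraries, which allows up to 3 reads. Of 5 peroxisome import and cobalamin partners, 0 were called between growth forms in either line. Of all genes compared, 2.19% were called higher and 3.33% lower in HCT116, and 8.57% and 7.85% in the LOVO-labelled libraries. For 5 genes, 0 calls is near those shares.

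The mitochondrial and lysosomal half-transporters showed small differences, and none was called between growth forms in either line. Of all genes compared, 2.19% were called higher and 3.33% lower in HCT116, and 8.57% and 7.85% in the LOVO-labelled libraries. ABCB10, a mitochondrial inner membrane transporter needed for haem synthesis, had an FPKM of 5.18, 3.52, 10.7 and 7.18, and ABCB8, part of the mitochondrial potassium channel complex, had 5.66, 3.86, 7.12 and 5.97. Both were lower in the spheroid than in the adherent library of each line, with log2 ratios from -0.58 to -0.25 and every interval below 0. ABCD4, which helps cobalamin leave the lysosome, was higher in both, at 3.63, 4.51, 2.17 and 3.62. ABCB9, a lysosomal peptide transporter, had 1.73, 1.54, 0.474 and 0.666, and 24.5% of its exonic bases lie opposite exons of other genes. ABCB6, a porphyrin transporter with 53, 79, 62 and 123 reads, was not compared and shares 54.7% of its exonic bases with another annotated gene on the same strand.

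Of the 4 ATPases without a membrane domain, 3 were lower in spheroids in HCT116 and 4 in the LOVO-labelled libraries, and 0 were called. Of all genes compared, 45.8% and 45.5% were higher in spheroids. The shares called were 2.19% higher and 3.33% lower in HCT116, and 8.57% and 7.85% in the LOVO-labelled libraries. ABCE1, the factor that splits ribosomes after termination, had an FPKM of 21.1, 15.5, 25.3 and 16.9, and log2 ratios of -0.45 (-0.54 to -0.36) and -0.58 (-0.67 to -0.50). Of its exonic bases, 11.9% lie opposite exons of other genes. ABCF1, which takes part in translation initiation, had 22.3, 17.2, 49.2 and 36.7, with -0.37 (-0.47 to -0.27) and -0.42 (-0.49 to -0.36). ABCF2 had 5.27, 4.30, 10.9 and 5.49 but shares 45.8% of its exonic bases with another gene on the same strand, so its reads are uncertain.

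ABCF3 was the exception. Its FPKM was 14.4 and 16.5 in HCT116 and 18.3 and 12.9 in the LOVO-labelled libraries, with log2 ratios of 0.20 (0.09 to 0.30) and -0.51 (-0.61 to -0.40). Of 8 genes of ribosome recycling, termination and initiation, 7 were below 0 in each line. Of all genes compared, 45.8% in HCT116 and 45.5% in the LOVO-labelled libraries were above 0. In HCT116, 1 was called lower (EIF2S2), against 3.33% of all genes. In the LOVO-labelled libraries 2 were (EIF2S2 and EIF3J), against 7.85%. EIF2S2, a subunit of the initiation factor that delivers the initiator tRNA, had 79.2, 39.1, 151 and 45.9.

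Between the lines, 7 members passed the threshold in adherent cells and 7 in spheroids. The 2 comparisons share no library, but they set the same 2 lines against each other. In adherent cells 5 members, or 20%, were called higher in the LOVO-labelled library, ABCC3, ABCC4, ABCF1 and ABCG2 among them, against 17.4% of all genes, and 2, or 8%, lower (ABCC10 and ABCG4), against 16.4%. In spheroids 5 were called higher, ABCA5, ABCC3, ABCF1 and ABCG2 among them, against 17.7%, and 2 lower (ABCC10 and ABCG4), against 15%. In both growth forms ABCG2, ABCC3 and ABCF1 were thus called higher, and ABCC10 and ABCG4 lower. The share of all genes called in both was not computed, so this overlap is not read as a result about the members.

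**Figure D5:**
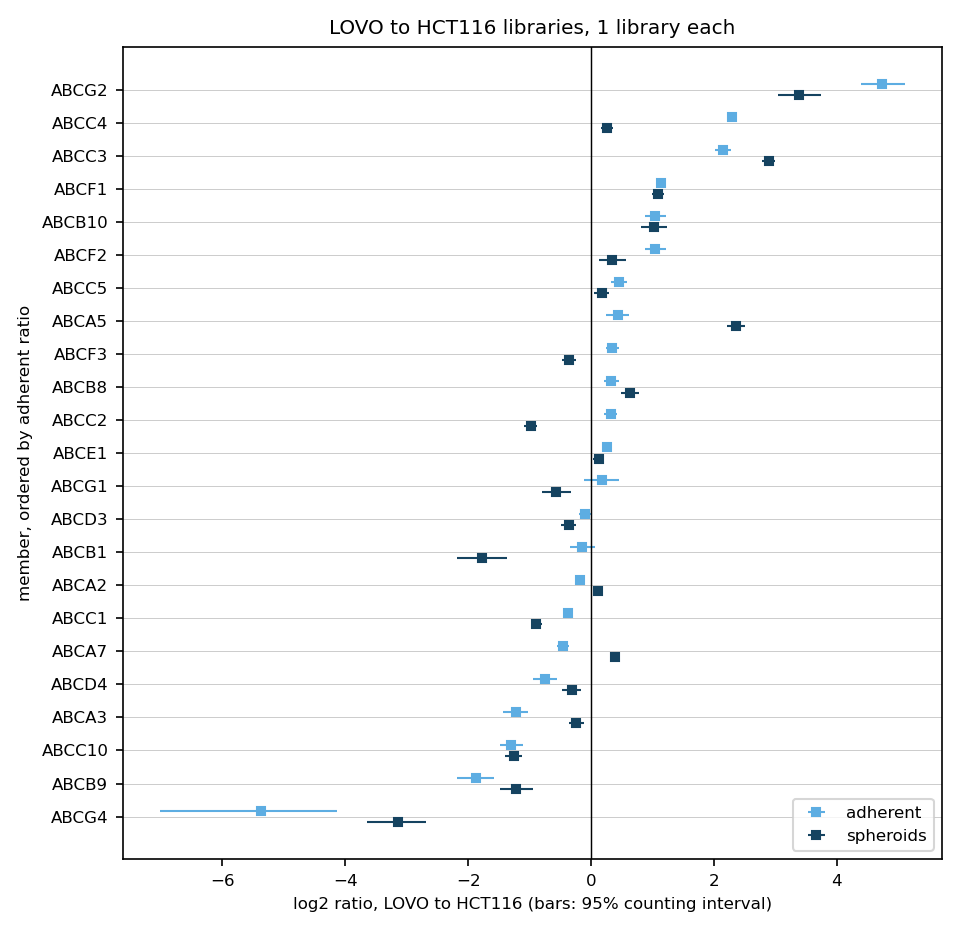
Log2 ratio of the FPKM of LOVO-labelled to HCT116 libraries for 23 of the 25 compared members, in adherent cells (light) and spheroids (dark), with 95% exact counting intervals as bars. ABCG2 is highest, at 4.74 in adherent cells and 3.38 in spheroids, and ABCG4 lowest, at -5.38 and -3.15.

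ABCG2 was 26.8-fold higher in adherent LOVO-labelled cells (log2 ratio 4.74, interval 4.40 to 5.11) and 10.4-fold higher in spheroids (3.38, 3.05 to 3.74). ABCG4 was 41.5-fold lower in adherent cells (-5.38, -7.01 to -4.13), on 5 reads in the LOVO-labelled library, and 8.86-fold lower in spheroids (-3.15, -3.64 to -2.68). ABCC3 was 4.45-fold and 7.44-fold higher. ABCC4 was 4.92-fold higher in adherent cells but 1.20-fold in spheroids.

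In limma 7 of 25 members had an unadjusted p under 0.05 for the line, against 41.4% of all genes. After adjustment over all genes 6 members, or 24%, passed, against 24.7%. Among them, the fitted fold changes, with standard errors and adjusted p from limma, were 2.26 ± 0.30 for ABCC3 (0.0132), 1.08 ± 0.24 for ABCF1 (0.0370) and -1.04 ± 0.24 for ABCC10 (0.0420). ABCG2, at 2.99 ± 0.35, and ABCG4, at -1.51 ± 0.29, also passed. These 2 reached the mean FPKM filter only through the line where they were high, so their p is not given as support. ABCA1, higher in HCT116, did not reach the filter and was not fitted. The 2 libraries of a line differ in growth form and are not replicates, and the epithelial and fibroblast markers above move with this contrast.

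Lists of genes outside the family were read beside it. Of 18 nuclear receptors and xenobiotic regulators, 15 were compared. In HCT116 spheroids 0 were called higher, against 2.19% of all genes, and 0 lower, against 3.33%. In LOVO-labelled spheroids 3 were called higher (HIF1A, NR1H3 and VDR), against 8.57% of all genes, and 2 lower, NFE2L2 among them, against 7.85%. NFE2L2, the oxidative stress regulator NRF2, had an FPKM of 18.8, 11.8, 49.6 and 19.2, and HIF1A, the oxygen-regulated factor, had 25.1, 32.2, 100 and 269. NR1I2, the xenobiotic receptor PXR, had a mean FPKM of 0.0147 over the 4 libraries.

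Among the ABC proteins under other symbols, TAP1, 1 of the 2 chains of the antigen peptide transporter, had an FPKM of 12.2, 12.6, 33.1 and 72.0 and was called higher in LOVO-labelled spheroids. TAP2, the other chain, had 4.71, 3.20, 8.92 and 7.19 and was not called between growth forms. CFTR had 8, 25, 18 and 9 reads. Of 5 membrane anchors of exporters, 4 were compared and 0 were called between growth forms. The shares of all genes called were 2.19% higher and 3.33% lower in HCT116, and 8.57% and 7.85% in the LOVO-labelled libraries. Between lines EZR was called lower in both LOVO-labelled libraries, at 87.4 and 47.0 against 809 and 576. The shares of all genes called lower were 16.4% in adherent cells and 15% in spheroids. MSN was called higher, at 93.3 and 144 against 41.3 and 31.5, where the shares were 17.4% and 17.7%.

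The other members stayed at low levels. ABCA13 had 104 reads in adherent LOVO-labelled cells and 2 to 4 in the other 3 libraries, a log2 ratio of -5.87 (-8.93 to -3.98) within the LOVO-labelled libraries. ABCA12, a lipid transporter of the skin barrier, had 62 and 124 reads in HCT116 and 16 and 13 in the LOVO-labelled libraries, and ABCA4, the retinal transporter, had 45, 56, 44 and 13. ABCC6 had 55, 56, 64 and 181 reads, but 18.1% of its 50-base stretches also occur in other genes, and its pseudogenes ABCC6P1 and ABCC6P2 had 55 and 42 reads in LOVO-labelled spheroids against at most 10 and 0 elsewhere. ABCB5, ABCB11, ABCC8, ABCC9 and ABCC12 had at most 8 reads in any library, and no fold is given for them.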

How the data were processed

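RNA-seq was read in 4 libraries, 1 per condition, made per the labels from total RNA with the SMARTER mRNA-Seq kit. The authors deposited FPKM per gene. The aligner and counter are not given in the sources used here. The submitters' processing notes name the mouse build GRCm38 (mm10), yet 58735 of 58735 gene IDs are in human GENCODE 29, 58724 with the same start and end. FPKM times gene length gave whole multiples of 1 step per library for 100% of values above 0 (tolerance 0.01), hence the reads. Fold changes used log2(FPKM + 1) over genes whose mean FPKM reached 1, and intervals were exact (Clopper-Pearson). limma 3.58.1 in R 4.3.3 (trend, Benjamini-Hochberg over all genes) fitted growth form and line. The procedure was run on simulated counts that carried counting error only, with no variation between replicate libraries. That run cannot check the error that 1 library per condition leaves unknown. No fold was computed with 3 reads or fewer in both libraries. Members with a mean FPKM of at least 1 were named with all values, the rest by reads or ranges. The members and gene lists were chosen with earlier results of these data known. Sequences came from RefSeq promoter tables, which held no entry for 10 members. Python 3.11.15 and scipy 1.17.1 were used. The single values of 2 compared members are not reported here.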

Additional observations from a re-analysis of the deposited data

Results flagged for a closer look

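For 3 members the spheroids were above adherent cells in HCT116 and below them in the LOVO-labelled libraries, with both counting intervals clear of 0. With 1 library per condition the difference between the lines was not tested. The fold change in LOVO-labelled cells minus that in HCT116 was -1.93 for ABCC4 (0.23 in HCT116 and -1.70 in LOVO), -1.19 for ABCC2 (0.76 and -0.44) and -0.66 for ABCF3 (0.18 and -0.48). These are 12% of the 25 compared members, against 13.98% of the 14429 genes that met the same description in either direction.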

How the results depend on the processing

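Of 70 counts under alternatives, 54 stayed within 1.5 times the reported count and 16 did not. Members lower in LOVO-labelled than in HCT116 adherent cells numbered 2, but 4 with a pseudocount of 0.1 or 0.01 or as TPM and 1 with a mean FPKM of at least 5. In spheroids they numbered 2, but 4 with a pseudocount of 0.1 or 0.01 and 1 with a mean FPKM of at least 5. At a threshold of 2 the counts were 0 lower in adherent cells and 0 lower in spheroids between the lines, 3 higher in adherent cells and 2 higher in spheroids, and 0 higher and 0 lower in LOVO-labelled spheroids. Unadjusted limma calls for growth form numbered 5, but 3 with a mean FPKM of at least 5 and 0 with growth form as the only term. For the line they numbered 7, but 12 with no filter on low values. Adjusted calls for the line numbered 6, and 3 to 6 under the alternatives. No fold change of a compared member changed sign under TPM or the TMM-style scaling. A pseudocount cannot change the sign of a fold change, so the 2 pseudocounts were no check of it. TPM moved the median of all genes by 0.22 on the log2 scale between spheroids of the 2 lines. The cause of these moves was not tested beyond what each setting changes. The limma fit for growth form already compares spheroids with adherent cells within each line. No paired analysis was possible by replicate number because each condition had 1 library, and no library was left out.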
